A study of Mus musculus with 8 samples.

Results

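This account covers 10 genes of smooth muscle and pericytes, among 15007 genes measured in injured muscle. Each was found as the row of the deposited array table whose annotation names that gene alone, and all 10 had exactly 1 such row. Of the 10, 7 encode parts of the smooth muscle contractile apparatus (Lmod1, Acta2, Tagln, Cnn1, Smtn, Myh11 and Mylk). The other 3 (Rgs5, Pdgfrb and Cspg4) are signalling and surface genes of pericytes, the cells that wrap capillaries, and are not contractile proteins. As each of the 10 had 1 row, the rule of keeping the brightest row made no choice among them. The set was put together with the comparison of the genotypes already known: Lmod1 was selected on its log2 difference between flox and WT. The differences of the 10 genes between the genotypes are therefore given as a description, without a test.

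The mice studied were male Foxp3-Cre/ST2 flox mice, in which Cre expressed from Foxp3, the defining gene of regulatory T cells, is used to remove ST2, the receptor for interleukin-33. Their controls were male Foxp3-Cre/ST2 WT mice, which carry the same Cre. All were C57BL/6, aged 10 weeks by the sample labels and 2 months by the series description, and the tibialis anterior was taken 8 days after freezing injury. There were 4 arrays per genotype, and rows for ST2 itself are not analysed here. Whether the arrays of a genotype stand for separate animals is not stated in the labels, so the replicate spread behind every p-value may be technical.

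Smooth muscle contracts when calcium and calmodulin activate myosin light chain kinase, which phosphorylates the light chains of smooth muscle myosin and lets it pull on actin filaments. Serum response factor (SRF), with its coactivator myocardin, switches on many of the contractile genes through a DNA element called the CArG box. In skeletal muscle these genes mark the walls of arterioles and venules, while pericytes lie on the capillaries and depend on platelet-derived growth factor from the endothelium. Several of the genes are also used by other cells of a healing muscle: Acta2 marks myofibroblasts and is switched on briefly in young muscle fibres, and Pdgfrb is shared with fibroblasts.

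Median intensity per array lay between 185 and 189. The labelled tissue was checked on 16 markers of skeletal fibres, all of which lay above the filter on low values, with summed intensities of 120231 to 130208 on the flox arrays and 117217 to 130273 on the WT arrays. All 15 endothelial markers passed the filter too, as did 15007 of all 19752 genes, so passing it does not by itself show that a cell type was present. In whole muscle, fewer cells of a type and less RNA per cell cannot be told apart. Smooth muscle and pericyte genes all lay above the filter, a mean log2 intensity of 6.35.

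By genotype, the flox mean was the higher for 8 of the 10 genes and the lower for 2, where it was the higher for 48.8% of all genes tested. The median difference, flox minus WT, was 0.08 log2 over the 10 genes, against -0.002 over all 15007. In limma 0 of the 10 genes passed an adjusted p of 0.05 over all genes, and the share of all genes that passed was 0%. At an unadjusted p under 0.05 there were 2 of the 10, beside 3.79% of all genes. That share rested on single arrays: 569 genes had such a p over all 8 arrays, 3012 without flox array 4 and 245 without flox array 2. The groups did not overlap for 2 of the 10, Lmod1 and Smtn, beside 1.97% of all genes. Nothing is read from these counts, because the choice of genes drew on the same comparison.

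**Figure D1:**
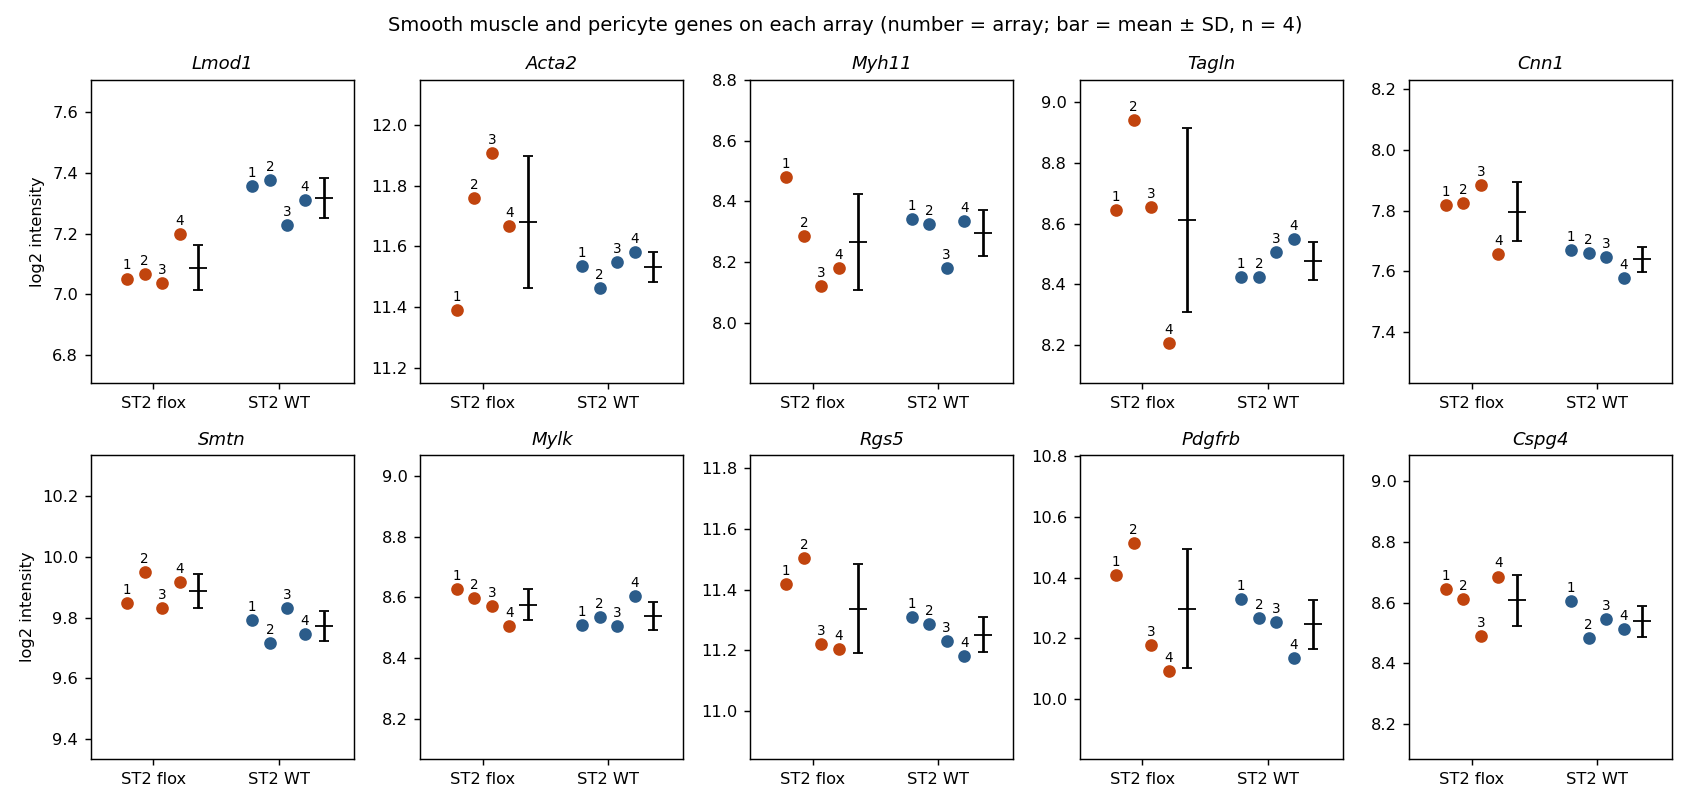
Log2 intensity (y axis) of each of the 10 genes on the 4 ST2 flox arrays (left, orange) and the 4 ST2 WT arrays (right, blue), numbered as in the labels, with the mean and SD (n = 4) as bars. Every panel spans the same range of log2 units; Lmod1 lies lower on all 4 flox arrays, and the flox points of Tagln and Acta2 are spread widely around tightly grouped WT points.

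Among the thin filament genes, Lmod1 stood lower in flox. Leiomodin-1, its product, nucleates actin filaments in smooth muscle. Lmod1 had log2 intensities of 7.05, 7.07, 7.04 and 7.20 on flox arrays 1 to 4, against 7.36, 7.38, 7.23 and 7.31 on WT arrays 1 to 4. All 4 flox arrays lay below every WT array, by a gap of 0.03 between the closest arrays, flox 4 and WT 3. The means were 7.09 ± 0.07 in flox and 7.32 ± 0.07 in WT (SD, n = 4 each), a difference of -0.23 (limma SE 0.06), or 1.17-fold lower in flox. Over all genes tested, 0.826% had their whole flox range below the WT range. The difference of Lmod1 ranged from -0.27 to -0.21 when each array was left out in turn.

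The other 4 thin filament genes all had a higher mean in flox. Acta2 encodes smooth muscle alpha-actin, the actin of the contractile filament. Acta2 had log2 intensities of 11.39, 11.76, 11.91 and 11.67 on flox arrays 1 to 4, against 11.54, 11.46, 11.55 and 11.58 on WT arrays 1 to 4. It was higher on flox arrays 2 to 4 than on any WT array, but flox array 1 lay below all of WT. The difference of the means was 0.15 (SE 0.10), with 0.25 when flox array 1 was left out and 0.07 when flox array 3 was. Other actin genes are near-identical in their coding sequence, and how far the probes keep them apart was not tested.

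Tagln encodes transgelin, an actin-binding protein of smooth muscle that is also made by myofibroblasts. Tagln had log2 intensities of 8.64, 8.94, 8.65 and 8.21 on flox arrays 1 to 4, against 8.43, 8.42, 8.51 and 8.55 on WT arrays 1 to 4. Of all the 10 genes it varied most over the arrays, 1.67-fold between flox array 2, the highest, and flox array 4, the lowest. The difference of 0.14 (SE 0.13) rested on these arrays, being 0.02 without flox array 2 and 0.27 without flox array 4.

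Cnn1 encodes calponin 1, which binds actin and restrains the myosin motor. Cnn1 had log2 intensities of 7.82, 7.82, 7.88 and 7.66 on flox arrays 1 to 4, against 7.67, 7.66, 7.65 and 7.58 on WT arrays 1 to 4. Flox arrays 1 to 3 exceeded every WT array and flox array 4 fell among them. The means were 7.80 ± 0.10 in flox and 7.64 ± 0.04 in WT (SD, n = 4 each), a difference of 0.16 (SE 0.06), with 0.13 to 0.20 when each array was left out.

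Smtn encodes smoothelin, a cytoskeletal protein of contractile smooth muscle. Smtn had log2 intensities of 9.85, 9.95, 9.83 and 9.92 on flox arrays 1 to 4, against 9.79, 9.72, 9.83 and 9.75 on WT arrays 1 to 4. Its groups did not overlap, but only by 0.00062 between flox array 3 and WT array 3. The means differed by 0.12 (SE 0.06). Over all genes 1.14% had their whole flox range above the WT range.

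The motor genes showed the smallest differences. Myh11 encodes the heavy chain of smooth muscle myosin, the most restricted marker of mature smooth muscle in the set. Myh11 had log2 intensities of 8.48, 8.29, 8.12 and 8.18 on flox arrays 1 to 4, against 8.34, 8.33, 8.18 and 8.34 on WT arrays 1 to 4. The groups overlapped, with flox array 1 the highest and flox array 3 the lowest of all 8 arrays. The difference was -0.03 (SE 0.08) and had no stable sign, at -0.10 without flox array 1 and 0.02 without flox array 3.

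Mylk encodes myosin light chain kinase, which starts contraction. Mylk had log2 intensities of 8.63, 8.60, 8.57 and 8.51 on flox arrays 1 to 4, against 8.51, 8.53, 8.51 and 8.61 on WT arrays 1 to 4. It was the steadiest of the 10 genes, with 1.09-fold between its highest and its lowest array, and its groups overlapped. The difference of the means was 0.04 (SE 0.05), with 0.02 without flox array 1 and 0.06 without flox array 4.

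Pericyte genes overlapped between the genotypes as well. Rgs5 encodes a regulator of G-protein signalling used as a pericyte marker. Rgs5 had log2 intensities of 11.42, 11.50, 11.22 and 11.21 on flox arrays 1 to 4, against 11.31, 11.29, 11.23 and 11.18 on WT arrays 1 to 4. Flox arrays 1 and 2 were above every WT array, and flox arrays 3 and 4 lay within the WT range. The difference was 0.09 (SE 0.08), and 0.03 without flox array 2.

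Pdgfrb encodes the receptor through which platelet-derived growth factor recruits pericytes. Pdgfrb had log2 intensities of 10.41, 10.51, 10.18 and 10.09 on flox arrays 1 to 4, against 10.33, 10.27, 10.25 and 10.13 on WT arrays 1 to 4. The difference of 0.05 (SE 0.09) became -0.02 without flox array 2 and 0.12 without flox array 4. As for Rgs5, in both genotypes arrays 1 and 2 were higher than arrays 3 and 4. The labels do not say what the sample numbers stand for.

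Cspg4 encodes the NG2 proteoglycan on the pericyte surface. Cspg4 had log2 intensities of 8.64, 8.61, 8.49 and 8.69 on flox arrays 1 to 4, against 8.61, 8.48, 8.55 and 8.51 on WT arrays 1 to 4. Flox arrays 1, 2 and 4 were above every WT array, with flox array 3 near the lowest. The difference was 0.07 (SE 0.06), and 0.04 without flox array 4 or 0.11 without flox array 3.

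**Figure D2:**
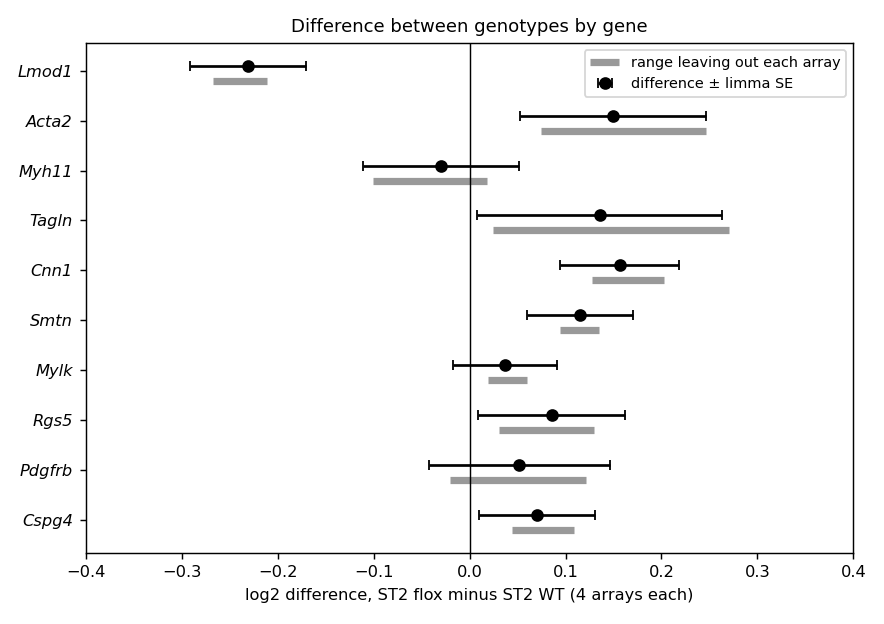
Log2 difference, ST2 flox minus ST2 WT (x axis), of each gene (rows): points with bars are the difference and its limma standard error over 4 arrays per genotype, and grey bars the range when each array is left out in turn. Lmod1 lies at -0.23 and the other thin filament genes between 0.12 and 0.16; the grey bars of Myh11 and Pdgfrb cross 0.

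The flox arrays were more unlike each other than the WT arrays. The SD over arrays was larger in flox for all 10 genes, with a median of 0.12 in flox and 0.05 in WT, where 66.1% of all genes tested had a larger SD in flox and the medians over all genes were 0.11 in flox and 0.08 in WT. The ratio of the flox SD to the WT SD was 4.88 for Tagln and 4.44 for Acta2. Ratios at least as large were found for 5.04% and 6.28% of all genes. For Lmod1, Smtn and Mylk the ratios were 1.11 to 1.12, and about 61% of all genes had ratios at least that large. With 4 arrays per genotype these SDs are imprecise, and no test of them was made.

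How the genes varied together over the 8 arrays was described with the genotype means kept and again with them removed. Lmod1 was left out of the tally, because it separates the genotypes by the way it was chosen. Among the 36 pairs of the other 9 genes, 28 correlated positively and 8 negatively with the means kept (median Pearson's r 0.38), against 25 and 11 with the means removed (median 0.23). Rgs5 and Pdgfrb moved together. Their correlation was r = 0.96 (exact permutation p = 0.000124, two-sided; adjusted over the 45 pairs 0.00558), and Spearman's rho was 0.98 (exact permutation p = 0.000397; adjusted 0.0179). Without flox arrays 1 and 2, the arrays farthest from the median of Rgs5, r was 0.90. After the mean of each genotype was removed r was 0.98, with an exact permutation p of 0.00174, the smallest that permuting within genotypes can give, and an adjusted p of 0.0781. Among the 36 pairs without Lmod1, with the means kept, Rgs5 with Pdgfrb was the only pair to pass 0.05 (exact permutation, adjusted over the 36 pairs 0.00446). An unadjusted p under 0.05 was found for 4 of the 36. With the means removed 0 of the 36 passed, and 1 had an unadjusted p under 0.05. These p-values take the 8 arrays as exchangeable, and the arrays shared some structure over all genes. Deviations from the genotype means on flox arrays 1 and 2 correlated with those on WT array 2 at 0.27 and 0.35. With those on WT array 1 they correlated at -0.002 and 0.005, and with those on WT arrays 3 and 4 at -0.27 to -0.11. The part of that structure in the correlation of Rgs5 and Pdgfrb was not tested.

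Neither Rgs5 nor Pdgfrb was the closest gene to the other. Of 15006 other genes, 6 followed Pdgfrb more closely than Rgs5 did, and 12 followed Rgs5 more closely than Pdgfrb did. Hmox1, the heme-degrading enzyme made by macrophages that clear damaged fibres, was among the 5 closest non-members of both genes (r = 0.99 with Rgs5 and 0.96 with Pdgfrb, over 8 arrays), as was the transcriptional coactivator gene Med1. Hmox1 had log2 intensities of 9.90, 10.37, 8.85 and 8.71 on flox arrays 1 to 4, against 9.30, 9.46, 8.99 and 8.69 on WT arrays 1 to 4. The nearest genes of Rgs5, Pdgfrb and Acta2 were looked up after the values were seen. With so many genes and 8 arrays a high r is easily reached, so these are descriptions, and the arrays share their normalization.

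Acta2 and Myh11, both smooth muscle genes, did not run in parallel. Flox array 1 was the lowest of the 8 for Acta2 and the highest for Myh11, and flox array 3 the reverse. The correlation was r = -0.76 (exact permutation p = 0.0273, adjusted over the 45 pairs 0.309) and rho = -0.79 (exact permutation p = 0.0279, adjusted 0.414), and so did not pass. It was -0.80 without flox arrays 2 and 3, the farthest from the median of Acta2, and -0.80 with the genotype means removed (exact permutation p = 0.0938). Within flox r was -0.90 and within WT it was -0.15, over 4 arrays each and without a test.

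The genes closest to each of the pair differed too. Acta2 was followed most closely by Tnc, which encodes the matrix protein tenascin-C, at r = 0.99 over the 8 arrays and 0.99 with the genotype means removed. Tnc had log2 intensities of 10.05, 11.21, 11.58 and 10.80 on flox arrays 1 to 4, against 10.59, 10.36, 10.46 and 10.56 on WT arrays 1 to 4. Next to Acta2 came Tyms, Slc7a5, Casq2 and Mest (r of 0.93 to 0.94), of which Tyms makes thymidylate for DNA synthesis and Casq2 encodes a calcium store protein of the sarcoplasmic reticulum. Myh11 was followed by Pir, Vwf, D11Wsu47e, Ccr6 and Thsd7a (r of 0.96 to 0.97). Of these Ccr6 lay at the filter on low values, with log2 intensities of 6.24 to 6.49 against a filter of 6.35. Vwf encodes von Willebrand factor of endothelial cells, with log2 intensities of 8.65, 8.43, 8.32 and 8.37 on flox arrays 1 to 4, against 8.56, 8.53, 8.34 and 8.48 on WT arrays 1 to 4.

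**Figure D3:**
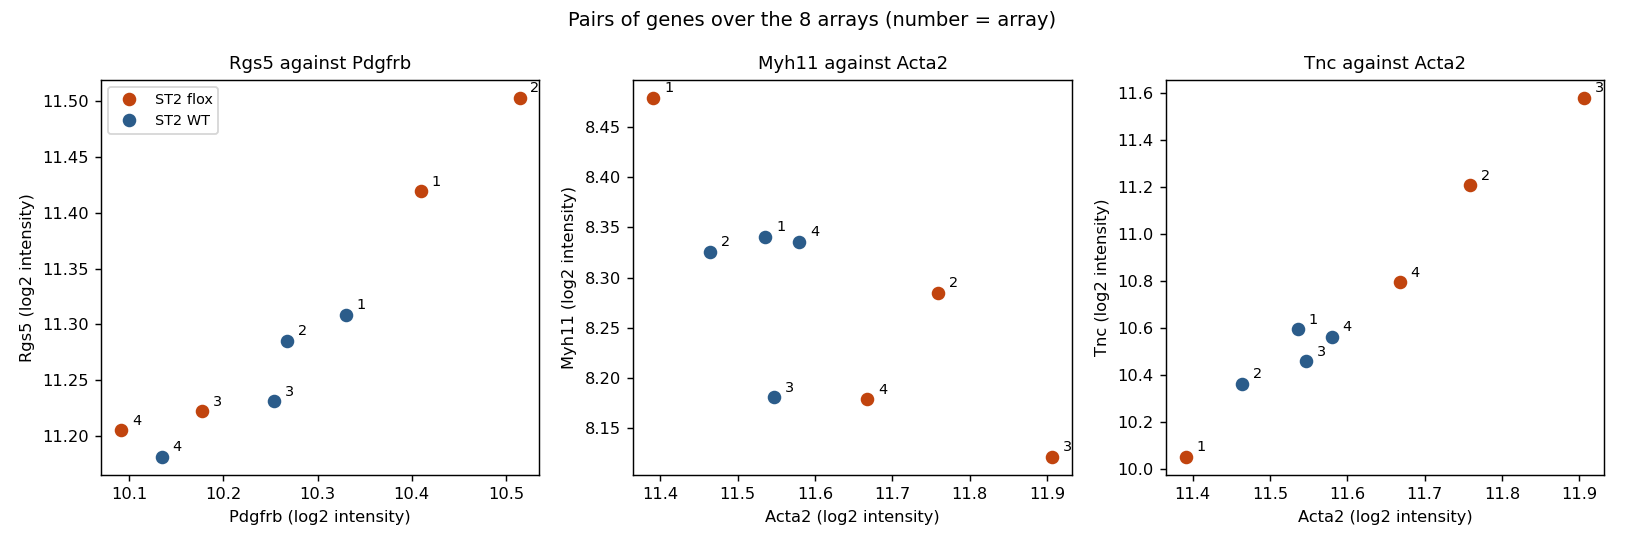
Log2 intensity of Rgs5 against Pdgfrb (left), Myh11 against Acta2 (middle) and Tnc against Acta2 (right), 1 point per array with its number, ST2 flox in orange and ST2 WT in blue. Rgs5 rises along Pdgfrb with flox arrays 1 and 2 at the top (r = 0.96); Myh11 and Acta2 have flox arrays 1 and 3 at opposite ends (r = -0.76, which did not pass after adjustment; -0.90 within flox and -0.15 within WT).

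The correlations of Lmod1 with the other 9 genes are given with the genotype means removed, where 7 of the 9 were negative. The strongest were with Tagln (r = -0.69, exact permutation p = 0.0903) and Cnn1 (r = -0.61, exact permutation p = 0.205), and neither passed (adjusted p = 0.898 over the 45 pairs for both). For Tagln r was -0.82 within flox and -0.68 within WT. For Cnn1 it was -0.98 within flox but 0.25 within WT, over 4 arrays each and without a test. In flox, array 4 had the highest Lmod1 and the lowest Cnn1 and Tagln. The genes most like Lmod1 over the 8 arrays were Nefh, Capza2, Usf3, Gm14410 and Slc22a18 (r of 0.95 to 0.96 with the genotype means kept, and 0.77 to 0.91 with them removed). Because Lmod1 was selected on its genotype difference, this choice favours genes that also differ between the genotypes, and Usf3 and Slc22a18 were lower on all 4 flox arrays. Among the 5, Capza2 encodes a subunit of the protein that caps actin filaments. Capza2 itself lay between 11.30 and 11.33 on the flox arrays and between 11.32 and 11.38 on the WT arrays. Gm14410 was the dimmest of the 5, at 6.59 to 6.96 over all arrays, against a filter of 6.35.

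**Figure D4:**
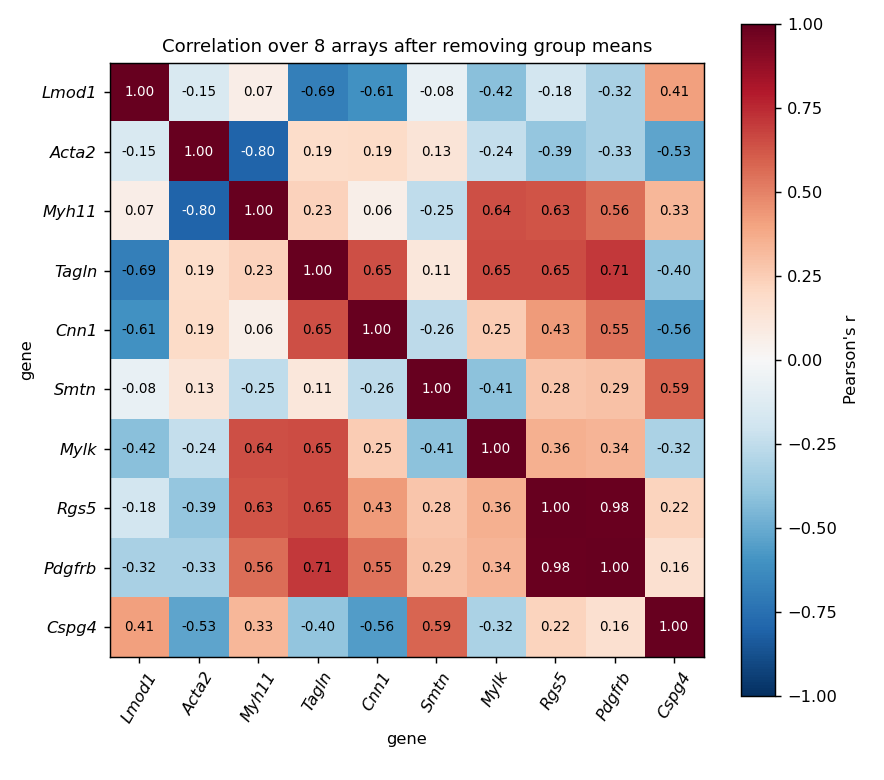
Pearson's r between each pair of the 10 genes over 8 arrays after removing the mean of each genotype, from -1 (blue) to 1 (red). Rgs5 with Pdgfrb (0.98) stands highest, Acta2 with Myh11 (-0.80) lowest, and Lmod1 is negative with 7 of the other 9 genes.

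The promoters of 3 thin filament genes are shown because these genes are classed together as SRF targets. Their differences between the genotypes pointed both ways: lower for Lmod1, higher for Acta2 and Cnn1. Lmod1 was selected on its difference, and the groups of Acta2 and Cnn1 overlapped, so nothing is read from these directions beside the sequences. Each promoter is the stretch of 120 bases just before the start of the gene, 5′ to 3′ on the strand of the gene, from RefSeq for build GRCm38.p6. Capitals mark matches to a relaxed CArG box.
Acta2, chr19:34255374-34255493, minus strand: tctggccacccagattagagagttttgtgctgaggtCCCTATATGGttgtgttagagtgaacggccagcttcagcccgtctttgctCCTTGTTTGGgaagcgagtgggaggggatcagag
Cnn1, chr9:22099133-22099252, plus strand: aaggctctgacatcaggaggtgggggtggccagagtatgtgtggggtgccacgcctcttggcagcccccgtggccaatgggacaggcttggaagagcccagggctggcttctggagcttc
Lmod1, chr1:135324693-135324812, plus strand: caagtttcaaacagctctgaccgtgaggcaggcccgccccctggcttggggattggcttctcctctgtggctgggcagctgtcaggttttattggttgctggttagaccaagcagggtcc

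The CArG box was searched as a pair of C, then 6 inner positions, then a pair of G, with A or T at all 6 (strict) or at all but 1 (relaxed). The shape reads the same on both strands, so each search covers both, and the windows ran from 250 bases before to 50 after the start. Promoters of 7 of the 10 genes were searched; those of Tagln, Myh11 and Pdgfrb were not used here. A strict match was held by 0 of these 7, and by 1.63% of all 32851 promoters in the table. A relaxed match was held by 1 of the 7, Acta2, which has 2, and by 9.98% of all promoters. Where no match is shown, these letters are not in this window, which says nothing about binding of the factor.

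Beyond the 10 genes, other genes listed for the contractile apparatus showed small differences of both signs. Of 27 other contractile and anchoring genes, 26 were tested. Some, such as Tpm1 and Des (WT means 13.49 and 13.08), were about as bright as the skeletal fibre marker Ttn (13.37). The part of skeletal fibres in the values of this list, Synm included, was not tested. The 26 genes had a higher mean in flox for 18 and a lower one for 8, with a median difference of 0.05 against -0.002 for all genes. In limma 0 passed (smallest adjusted p 0.912). At an unadjusted p under 0.05 there were 4 higher and 1 lower, that is 5 of 26, beside 3.79% of all genes. Synm, the intermediate filament gene synemin, was lower on all 4 flox arrays: 10.32, 10.23, 10.27 and 10.37 on flox arrays 1 to 4, against 10.50, 10.45, 10.52 and 10.50 on WT arrays 1 to 4 (difference -0.19, SE 0.05). The whole flox range lay below the WT range by 0.08, as it did by any gap for 0.826% of all genes. Mcam, an adhesion molecule of vessel walls, had 9.67 to 9.85 on the flox arrays and 9.54 to 9.67 on the WT arrays (difference 0.14, SE 0.06). Its groups were apart by only 0.00038, between flox array 1 and WT array 4, and 1.14% of all genes had their flox range above the WT range.

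Actg2, the gamma-actin of visceral smooth muscle, resembled Acta2 in its spread. It had log2 intensities of 6.87, 7.37, 7.35 and 7.16 on flox arrays 1 to 4, against 6.85, 6.81, 7.00 and 6.92 on WT arrays 1 to 4. As with Acta2, flox arrays 2 to 4 were above every WT array and flox array 1 was not (difference 0.29, SE 0.11; limma adjusted p = 0.912). Acta2 was far brighter (WT mean 11.53, against 6.89 for Actg2), and how far the probes keep these actin genes apart was not tested. Tpm4, a tropomyosin of non-muscle filaments, differed by 0.18 (SE 0.07; limma adjusted p = 0.912).

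Among 22 regulators of contractile genes, 20 were tested, with 12 higher and 8 lower in flox and a median of 0.03. None passed in limma, that is 0 of 20 (smallest adjusted p 0.912), with 2 higher and 1 lower at an unadjusted p under 0.05, beside 3.79% of all genes. Tgfb1, a growth factor that drives contractile gene expression, had log2 intensities of 9.13, 9.17, 9.16 and 9.14 on flox arrays 1 to 4, against 8.91, 8.98, 9.04 and 8.94 on WT arrays 1 to 4. Tgfb1i1, an adaptor protein induced by TGF-beta, had 9.19, 9.38, 9.32 and 9.19 on flox arrays 1 to 4, against 9.01, 9.03, 9.17 and 9.11 on WT arrays 1 to 4. For both, the flox range lay above the WT range (differences 0.18, SE 0.05, and 0.19, SE 0.07), as for 1.14% of all genes. Foxo4, a repressor of myocardin activity, differed by -0.19 (SE 0.07) with overlapping groups.

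Other pericyte genes differed little. Of 20 such genes, 18 were tested, 14 with a higher and 4 with a lower mean in flox, with a median of 0.04. Over all genes 48.8% had a higher mean in flox. In limma 0 of the 18 had an unadjusted p under 0.05, beside 3.79% of all genes (smallest adjusted p 0.912). The members with the smallest p were the transcription factor Tbx18 (0.13, SE 0.08), Art3 (-0.08, SE 0.07) and the potassium channel subunit Abcc9 (-0.07, SE 0.06). Art3 and Abcc9 were the brightest of the list (WT means 11.25 and 10.71), and the part of skeletal fibres in their values was not tested. Within flox the summed intensity of the 18 genes, like Rgs5 and Pdgfrb, was highest on arrays 1 and 2 and lowest on array 4. It was 12803, 11762, 11089 and 9955 on flox arrays 1 to 4, against 11342, 11233, 11405 and 11241 on WT arrays 1 to 4. For the PDGF pathway 9 of 11 genes had a higher mean in flox, with a median of 0.08 and 0 at an unadjusted p under 0.05 (limma; smallest adjusted p 0.912). Its members with the smallest p were Pdgfb, the ligand that endothelium offers to pericytes (0.14, SE 0.07), Pdgfrl (0.12, SE 0.11) and the ligand Pdgfd (0.14, SE 0.13). Pdgfrl was at 0.02 without flox array 3, and Pdgfd at 0.06 without flox array 1 and 0.28 without flox array 4.

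Relatives of the 10 genes within their own protein families were mixed, with 15 of 27 higher and 12 lower in flox and a median of 0.02. In limma 0 passed (smallest adjusted p 0.912), with 3 higher and 1 lower at an unadjusted p under 0.05, beside 3.79% of all genes. The leiomodins of heart and skeletal muscle, which were picked after their values were seen, did not share the position of Lmod1: Lmod2 differed by 0.11 (SE 0.09) and Lmod3 by -0.06 (SE 0.07). Myh9, a non-muscle myosin heavy chain, was 0.19 higher in mean (SE 0.07) and Smtnl2, a smoothelin relative, -0.18 (SE 0.07), both with overlapping groups. Rgs16 was higher on all 4 flox arrays, at 8.15 to 8.39 on the flox arrays and 8.10 to 8.14 on the WT arrays (difference 0.13, SE 0.06), a pattern held by 1.14% of all genes.

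Markers of other cell types moved along with some of the 10 genes. All 12 macrophage markers had a higher mean in flox, by a median of 0.21, where 48.8% of all genes had one. In limma 0 passed and 1, Cd14, had an unadjusted p under 0.05 (0.24, SE 0.09), beside 3.79% of all genes. The 12 were measured on the same arrays, so they are not 12 separate results. Their summed intensity was 14562, 14555, 11785 and 9107 on flox arrays 1 to 4, against 10640, 12448, 10249 and 10219 on WT arrays 1 to 4. Flox arrays 1 and 2 lay above every WT array, flox array 3 within the WT range and flox array 4 below every WT array. The leading members after Cd14 were Cd68 (0.20, SE 0.11) and Ptprc (0.24, SE 0.15), which were at 0.11 and 0.15 without flox array 2 and at 0.29 and 0.40 without flox array 4. In flox this order of arrays, 1 and 2 high and 4 lowest, was also that of Pdgfrb and Rgs5. It was not particular to macrophages. Summed endothelial markers had it (12467, 12296, 11557 and 11216 on flox arrays 1 to 4), as did the PDGF pathway genes (7898, 7708, 7480 and 6601). Summed fibroblast markers were also highest on flox array 1 and by far lowest on flox array 4, with array 3 slightly above array 2 (49167, 48339, 48723 and 36779). The sums of skeletal fibre and Schwann cell markers did not have this order. The part of macrophages in those values was not tested.

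Endothelial markers had a higher mean in flox for 12 of 15, beside 48.8% of all genes, by a median of 0.05. They were led by Cdh5 (0.14, SE 0.07), Esam (0.12, SE 0.07) and Pecam1 (0.12, SE 0.08). Their sum ranged from 11216 to 12467 on the flox arrays and from 10903 to 11685 on the WT arrays. Fibroblast and myofibroblast markers were higher for 10 of 13 tested (of 15 listed), by a median of 0.10, with sums of 36779 to 49167 on the flox arrays, the lowest on array 4, and 40851 to 46718 on the WT arrays. Tcf21 (-0.09, SE 0.07), Postn (0.11, SE 0.09) and Fn1 (0.13, SE 0.12) had the smallest p, and Fn1 was at 0.06 without flox array 2 and 0.26 without flox array 4. Skeletal fibre markers were higher for 7 of 16, with a median of -0.005, led by Actc1 (0.13, SE 0.12), Myh8 (0.10, SE 0.09) and Actn3 (-0.07, SE 0.06). Of 8 Schwann cell markers 5 were tested and 1 was higher, with a median of -0.06 and sums of 875 to 999 on the flox arrays and 916 to 958 on the WT arrays. Among them S100b differed by -0.12 (SE 0.08), Sox10 by -0.08 (SE 0.07) and Ncmap by -0.06 (SE 0.07). Apart from Cd14, 0 of these markers had an unadjusted p under 0.05, and 0 passed in limma after adjustment (smallest adjusted p 0.912). The part of these cells in the values of the 10 genes was not tested.

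**Figure D5:**
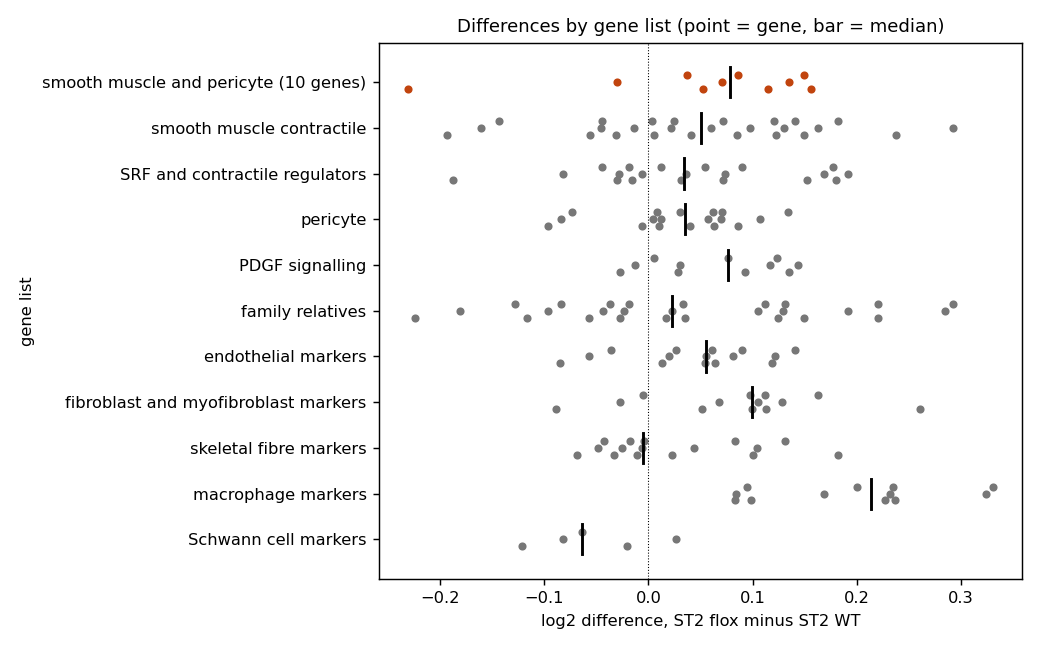
Log2 difference, ST2 flox minus ST2 WT (x axis), of every tested gene of each list (rows; 1 point per gene), with the median as a bar. The 10 smooth muscle and pericyte genes are in orange with a median of 0.08; the macrophage markers lie all above 0 with a median of 0.21, and the other lists straddle 0.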

How the data were processed

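Whole tibialis anterior RNA was hybridised to Affymetrix whole-transcript mouse arrays, 4 per genotype, grouped by the sample titles. The authors deposited a table of 24922 rows of probeset intensity, made with RMA in Affymetrix Power Tools per the submitters' processing notes. No version, genome build or row filter was given in the sources used here. The values are linear (5.81 to 19080), and RMA compresses changes of dim rows. For arrays, their number limits the precision.

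The log2 of each deposited intensity was taken without a pseudocount. Rows naming 1 gene in the platform annotation were used (21425). Rows with a mean below the 25th percentile (log2 6.35) were left out and the brightest row per gene kept, leaving 15007 genes. All 10 member symbols matched the RefSeq gene table. The comparison of genotypes used limma 3.58.1 under R 4.3.3 (group alone, empirical Bayes), with Benjamini-Hochberg adjustment over all genes and a threshold of 0.05. Member pairs were correlated over arrays with exact permutation tests (40320 pairings, or 576 within genotypes), adjusted over 45 pairs. Both procedures were tested on simulated data. Named genes were the 10 members, up to 3 per other list with the smallest p, list genes whose groups did not overlap, and the 5 genes most like Lmod1 and Myh11. Members and lists were chosen with earlier results of these data known. Alternatives changed the filter, the row kept, the normalization, the variance prior and the block, or left out each array.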

Additional observations from a re-analysis of the deposited data

Results flagged for a closer look

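In 82 groups of 4 arrays, for the 10 genes and the listed genes named by rule, 4 held an array far from the other 3, by Dixon's criterion on the gap to the nearest array. Chance flags about 1 in 20 groups. For Myh11, WT array 3 was low, at a log2 intensity of 8.18 against 8.33 to 8.34 on the other WT arrays. For Smtnl2, flox array 1 was high, at 11.11 against 10.85 to 10.88 on the other flox arrays. For Myh8, flox array 1 was low, at 10.14 against 10.50 to 10.57. For Cdh5, WT array 1 was high, at 10.82 against 10.72 to 10.74.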

How the results depend on the processing

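The count of the 10 genes past the threshold was 0 under every alternative run, and the count over all genes was 0 except without flox array 4, where 2 genes outside the set passed (range 0 to 2 without each array). Lmod1 fell below the filter at the 50th percentile, where 9 of the 10 genes were tested. The differences of the 10 genes moved by less than their SD within groups under every alternative, though those of Myh11 and Pdgfrb changed sign without flox array 3 and flox array 2. Of 34 named genes of the other lists, 0 passed under any alternative, and 1, Vwf, changed sign (-0.04 over all arrays, -0.10 to 0.0061 when 1 array was left out, the highest without flox array 3). When 1 array was left out, 20 of the 34, Vwf included, moved by over 1.5 times. Before adjustment 3012 genes lay under 0.05 once flox array 4 was left out, and 245 once flox array 2 was. The count of correlated pairs was 1, and 0 with genotype means removed, where permuting within genotypes cannot give a pair alone an adjusted p below 0.0781. Without each array it ranged from 1 to 2: without flox array 1 a pair with Lmod1 was added, from which nothing is read because the genotype means were kept, and without flox array 3 Cnn1 with Rgs5 (r = 0.95, exact permutation, adjusted p = 0.0134). The cause was not tested.

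With the sample number as a replicate block, 0 of the 10 genes and 0 of all genes passed in limma (694 at an unadjusted p under 0.05, against 569 without it). Whether the numbers pair the samples was not settled, and the labels do not say. Deviations of same-numbered arrays correlated at -0.002, 0.35, 0.25 and 0.04 across genes. Flox arrays 1 and 2 both correlated best with WT array 2 (0.27 and 0.35). Flox array 3 correlated best with WT array 4 (0.32), and flox array 4 with WT array 3 (0.16). With the block, the deviations of Rgs5 and Pdgfrb correlated at 1.00, which could not be tested.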

Other observations

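The nearest genes of the remaining members were looked up after the values were seen. Some were picked out for known ties to contraction or to pericytes, so nothing is read from them as a group. Cnn1 was followed most closely by Myh9, a non-muscle myosin heavy chain (r = 0.97 over 8 arrays, 0.94 with genotype means removed). Tagln was followed most closely by S1pr3, a sphingosine 1-phosphate receptor of smooth muscle (r = 0.98, and 0.98 with genotype means removed), and then by Milr1 (r = 0.98). For Cspg4 the closest genes were Polr1b (r = 0.94) and Mamld1 (r = 0.93). The third closest was Pdgfb, the ligand of Pdgfrb (r = 0.92, and 0.91 with genotype means removed). The closest gene was Lpcat4 for Smtn (r = 0.94) and Manba for Mylk (r = 0.98). These are descriptions over 8 arrays that share a normalization, picked from 15006 genes, and they carry no test.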
